A study of Mus musculus with 5 samples.

Results

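Cyclins, cyclin-dependent kinases (CDKs) and CDK inhibitors were followed in sorted endothelial cells of the mouse thymus, 4 days after irradiation and in untreated mice. The members were chosen by symbol. All probe sets were taken whose platform annotation named a single cyclin of the classes A to L or T, a numbered CDK, or an inhibitor of the Cdkn1 and Cdkn2 families. The p53 targets Ccng1 and Cdkn1a were left out by that choice. It gave 39 genes of 12393 named by the array, read by 70 of its 22690 probe sets. Of these, 52 probe sets of 31 genes passed the level filter, a log2 value above 4 on at least 2 arrays, and each gene was tested through its probe set with the highest mean.

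The day 0 group was 3 arrays of untreated female C57BL/6J mice and the day 4 group 2 arrays of female C57BL/6J mice given 550 cGy of total body irradiation, called sublethal (SL-TBI), from a cesium source with no hematopoietic rescue. All mice were 6 to 8 weeks old. In both groups CD45-positive cells were depleted on magnetic columns, CD45-, EpCAM- and VE-Cad+ cells were sorted, and the cells of several mice were pooled for each array. The day 4 arrays were labelled as stromal and the day 0 arrays as endothelial, under the same sorting protocol. Nothing says that the pools came from separate experiments, so the p-values reflect variation among pools that could be technical.

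All 12 listed endothelial markers, Cdh5 and Pecam1 among them, were past the filter, and 0 passed the limma test in either direction. An unadjusted p under 0.05 was found for 1, against 21.2% of all genes tested. The mean level of the 12 markers was 9.90 to 10.19 over the 5 arrays. Transcripts of other cells were also present: Ptprc, which encodes the CD45 that the sort excluded, lay between 6.08 and 6.86 on the 5 arrays, and Epcam between 5.67 and 7.27. The 3′ minus 5′ log2 signal of the actin control, a sign of RNA quality, ran from 1.43 to 1.65 at day 0 and from 1.35 to 1.39 at day 4. Its part in the results was not tested. Over all 8940 genes tested, the median log2 change, day 4 minus day 0, was -0.023.

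A cyclin binds a CDK, switches the kinase on and directs it to its substrates. D cyclins with CDK4 or CDK6 act in G1, cyclin E with CDK2 at entry into S phase, cyclin A with CDK2 and CDK1 through S phase and G2, and cyclin B with CDK1 in mitosis. Inhibitors of the INK4 family (Cdkn2) block CDK4 and CDK6, and those of the CIP/KIP family (Cdkn1) bind a wider range of cyclin-CDK complexes. Some other cyclins and CDKs serve transcription and RNA processing. Most endothelial cells of adult vessels are quiescent, that is, outside the cycle.

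Cyclin A2, cyclin B2 and CDK1, which act from S phase to mitosis, fell after irradiation, and no member was called higher. Of the 31 tested members, 3 were lower at day 4 and 0 higher at an adjusted p under 0.05 (limma, Benjamini-Hochberg adjustment over all genes). Over all genes tested, 1.35% were lower and 1.5% higher, 2.85% in all. The groups did not overlap for 16 of the 31 members, against 41.1% of all genes, and the day 4 arrays lay below for 9, against 23%. An unadjusted p under 0.05 was found for 11 members, against 21.2% of all genes. The median log2 change of the 31 members was -0.079. The 3 called genes were Ccna2, Ccnb2 and Cdk1, which were also the 3 tested of the 6 genes of the A, B and F cyclins with CDK1. Ccnb2 passed the filter through its day 0 arrays alone, so it counts here with that limit, and Cdk2, the other kinase of cyclin A, did not pass.

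**Figure D1:**
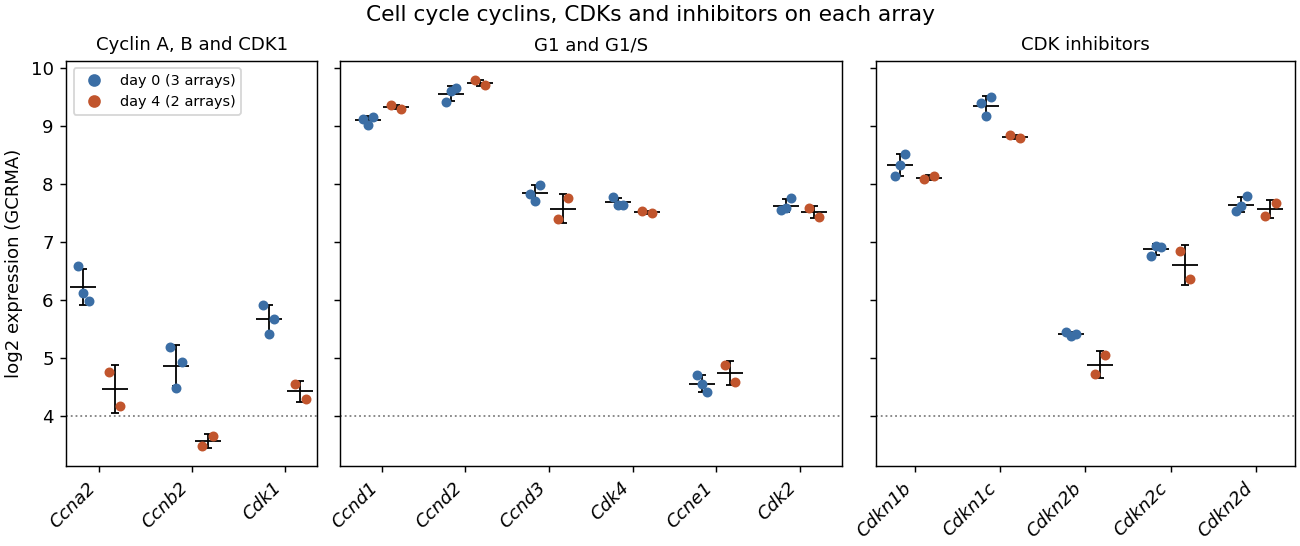
Log2 expression of the tested cell cycle members on each array, with day 0 in blue (3 arrays) and day 4 in orange (2 arrays). Horizontal marks and bars give mean and SD, and the dotted line is the level filter at 4. The day 4 points of Ccna2, Ccnb2 and Cdk1 lie below all their day 0 points, and both day 4 points of Ccnb2 lie under the filter.

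Ccna2 encodes cyclin A2, needed for DNA synthesis and for entry into mitosis. Its probe set 1417910_at stood at 6.57, 6.12 and 5.98 at day 0 and at 4.76 and 4.18 at day 4. The groups did not overlap, and day 0 replicate 1 was the highest array. The mean fell 3.37-fold, from 6.22 ± 0.31 at day 0 (SD, n = 3) to 4.47 ± 0.41 at day 4 (SD, n = 2), a log2 change of -1.75 ± 0.24 (SE) with a limma adjusted p of 0.0228. Its other probe set, 1417911_at, stood at 6.17, 5.68 and 5.54 at day 0 and at 5.01 and 4.82 at day 4. The groups were apart there too, with a smaller difference of -0.89, which did not pass when all probe sets were fitted together (limma adjusted p = 0.0988).

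Cdk1 encodes the kinase that drives entry into mitosis. Its single probe set, 1448314_at, read 5.91, 5.42 and 5.66 at day 0 against 4.55 and 4.30 at day 4. All day 4 values lay below the day 0 values and above the filter. Cdk1 fell 2.36-fold, from 5.66 ± 0.25 at day 0 (SD, n = 3) to 4.43 ± 0.18 at day 4 (SD, n = 2). The log2 change was -1.24 ± 0.17 (SE), at a limma adjusted p of 0.0228.

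Ccnb2 encodes cyclin B2, a mitotic partner of CDK1. Probe set 1450920_at gave 5.18, 4.48 and 4.94 at day 0 and 3.48 and 3.65 at day 4. Ccnb2 fell from 4.87 ± 0.36 at day 0 (SD, n = 3) to 3.57 ± 0.12 at day 4 (SD, n = 2). Its log2 change was -1.30 ± 0.21 (SE), at a limma adjusted p of 0.0353. Both day 4 arrays lay under the filter, so the size of this fall rests on background values.

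Promoters of Ccnb2 and Cdk1 are shown because both genes fell and the promoters of many genes of late cell cycle phases share a pair of elements. One is TTTGAA, the usual form of the cell cycle genes homology region, to which complexes with the MuvB core bind, and the other is CCAAT, bound by NF-Y. The windows run from 150 bases before the annotated RefSeq start to 12 bases from it, on GRCm38.p6. Capitals mark TTTGAA, then CCAAT, which is written ATTGG where it lies on the opposite strand, and the E2F-type site TTTCGCGC. These matches do not overlap.
Ccnb2, minus strand, chr9:70421543-70421704: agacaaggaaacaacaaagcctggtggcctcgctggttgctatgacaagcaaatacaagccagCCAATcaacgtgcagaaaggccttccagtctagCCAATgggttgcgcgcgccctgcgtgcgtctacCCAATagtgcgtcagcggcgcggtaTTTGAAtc
Cdk1, minus strand, chr10:69352901-69353062: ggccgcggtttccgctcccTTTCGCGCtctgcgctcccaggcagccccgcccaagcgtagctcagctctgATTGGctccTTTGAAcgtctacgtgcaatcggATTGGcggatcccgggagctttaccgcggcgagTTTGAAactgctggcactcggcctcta

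In the printed window of Ccnb2 the first bases of the CCAAT matches lie at -87, -54 and -21 from the start, and TTTGAA begins at base 5 from it. In that of Cdk1 the matches to TTTGAA begin at -71 and -15, with CCAAT on the opposite strand at -80 and -48, and TTTCGCGC at -131. Outside the windows, a further TTTGAA begins at -167 in Ccnb2 and a further CCAAT, on the opposite strand, at -208 in Cdk1. RefSeq promoters were found for 32 of the 39 member genes. Ccna2, Ccnd1, Ccnd2, Ccne2, Ccnh, Cdk5 and Cdkn1c had no entry, so their promoters were not searched. Searched on both strands of the full stretch of 250 bases before and 50 after the start, TTTGAA was held by 6 of the 32 genes and by 17.9% of all 32851 promoters. A gene counted if any of its listed promoters held a match, while the percentages are of single promoters, so these are unlike measures. CCAAT was held by 18 of the 32 and by 37.4% of all promoters. TTTGAA with at least 2 CCAAT matches was found in 4 member genes, which were Ccnb2, Cdk1, Ccnf and Cdk16, and in 2.09% of all promoters. TTTCGCGC was in Cdk1 alone among the 32, and in 0.323% of all promoters. A match describes the letters only, and of these 4 genes Ccnf lay under the filter and Cdk16 did not pass the test.

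The other members of this phase were not tested. Ccnf, the cyclin of an SCF ubiquitin ligase, lay at 2.92 to 3.81 on the 5 arrays, Ccna1, the cyclin A of germ cells, at 2.53 to 2.89, and Ccnb3, a cyclin known from meiosis, at 1.97 to 2.31. Ccnb1, cyclin B1, was named by no probe set in the annotation, so it could not be followed.

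These 3 calls rested on few arrays. Without day 0 replicate 3, 0 members passed, and calls over all genes fell to 34 of 8940, from 255 with all arrays. Without day 4 replicate 1 the calls were also lost, as were most calls over all genes. That left 1 day 4 array, and the changes were -2.05 for Ccna2, -1.37 for Cdk1 and -1.22 for Ccnb2. Without day 4 replicate 2, Ccna2, Cdk1 and Ccnb2 missed the threshold (limma adjusted p of 0.0547, 0.0599 and 0.0693), and the single called member was Cdkn2b. The 3 changes stayed negative under every alternative that was run on them, from -2.05 to -1.32 for Ccna2, from -1.37 to -1.11 for Cdk1 and from -1.49 to -1.14 for Ccnb2. Array weights left Ccna2 as the single call, at a limma adjusted p of 0.0499, and so did a level filter at 6, which removes Cdk1 and Ccnb2. With array weights 86 of all 8940 genes passed.

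Markers of other cells also moved, not all in the direction of these genes. The marker lists were chosen with earlier results of these data known. Of 17 listed thymocyte genes 11 were tested and 7 of them were lower at day 4, against 1.35% of all genes tested. An unadjusted p under 0.05 was found for 9 of the 11, against 21.2%. At day 0 the mean level of the 11 was 6.66, 5.90 and 6.41, and at day 4 it was 4.53 and 4.43. Rag1, which defines developing thymocytes, read 6.51 to 7.58 at day 0 and 3.06 and 3.14 at day 4, under the filter. Rag1, Cd8b1 and Ccr9 passed the filter through their day 0 arrays alone, so their calls count with that limit. Alas2, the 1 tested gene of 6 erythroid markers, also fell, from 6.05 to 6.31 at day 0 to 3.56 and 3.58 at day 4. These day 4 values lay under the filter, so Alas2 too passed it through day 0 alone. The 14 tested of 15 myeloid genes had a mean level of 5.75 to 6.62 at day 0 and 7.23 and 7.35 at day 4. All 14 had an unadjusted p under 0.05, against 21.2% of all genes tested. Of the 14, 4 were called higher and 2 lower, against 1.5% and 1.35% of all genes tested. Among the higher ones, Cd163 and Vsig4 passed the filter through day 4 alone. The lower ones, S100a8 and S100a9, passed it through day 0 alone. The 8 tested of 10 thymic epithelial genes had a mean level of 7.18, 6.63 and 6.83 at day 0 and 6.52 and 5.94 at day 4. In limma 0 of the 8 were called, and 4 had an unadjusted p under 0.05, against 21.2% of all genes tested. The part of thymocyte, erythroid, myeloid and epithelial transcripts in the fall of Ccna2, Cdk1 and Ccnb2 was not tested. In these pools, fewer cycling cells and less transcript per cell cannot be told apart.

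**Figure D2:**
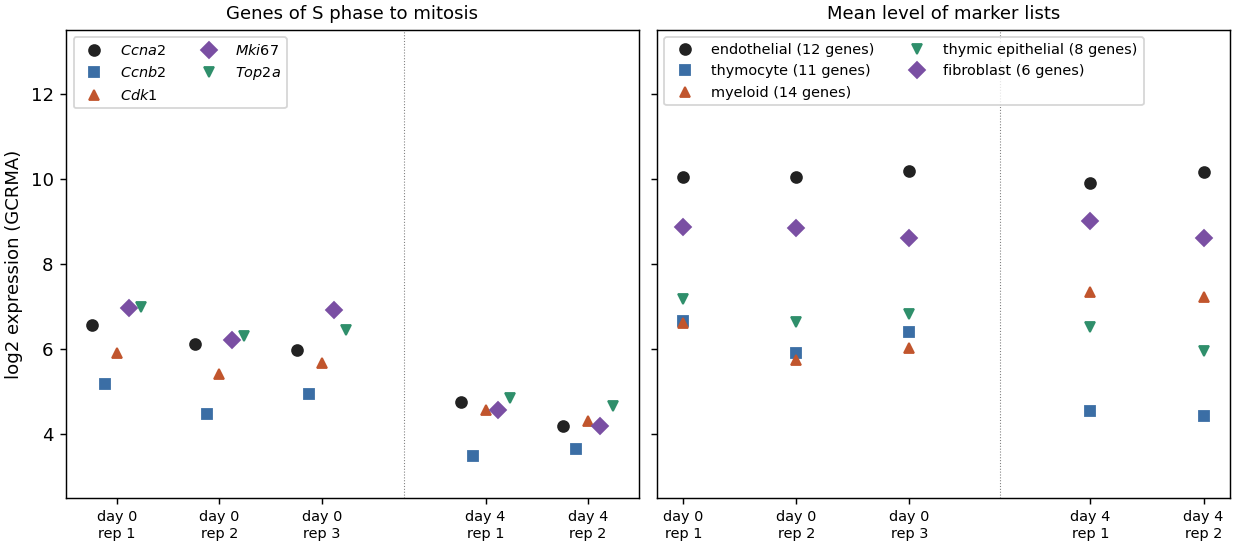
Left, log2 expression of Ccna2, Ccnb2, Cdk1, Mki67 and Top2a on each of the 5 arrays, and right, the mean log2 level of the tested genes of 5 marker lists on the same arrays. The cycle genes and the thymocyte mean lie lower on both day 4 arrays, the myeloid mean lies higher on both, and the endothelial mean stays between 9.90 and 10.19.

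D cyclins connect growth signals to the cycle, and cyclin D1 is induced by growth factors in endothelial cells. None of the 4 tested genes of this phase passed the limma test, and the median change was 0.0097. For 1 of the 4 the unadjusted p was under 0.05, against 21.2% of all genes tested. Ccnd1 stood at 9.119, 9.004 and 9.150 at day 0 and at 9.351 and 9.294 at day 4. The groups did not overlap, but the difference of 0.23 ± 0.095 (SE; 95% interval 0.00088 to 0.46) did not pass (limma adjusted p = 0.234). Both other Ccnd1 probe sets also had their day 4 values above all day 0 values, with differences of 0.35 and 0.58.

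Ccnd2, cyclin D2, gave 9.40, 9.60 and 9.64 at day 0 and 9.78 and 9.70 at day 4, a difference of 0.19 (95% interval -0.076 to 0.46, limma adjusted p = 0.367). It was read by 6 probe sets past the filter, with differences of 0.00075 to 0.21, and on 5 of these the groups overlapped. Ccnd3, cyclin D3, ran from 7.70 to 7.98 at day 0 and read 7.39 and 7.75 at day 4, so its groups overlapped (difference -0.26, 95% interval -0.61 to 0.086, limma adjusted p = 0.346). Leaving out single arrays gave -0.44 to -0.084 for Ccnd3. The D cyclins thus differed in sign, and none of the intervals reached a 2-fold change.

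Cdk4, the kinase of the D cyclins, gave 7.76, 7.64 and 7.63 at day 0 and 7.52 and 7.49 at day 4. Its difference of -0.17 did not pass (limma adjusted p = 0.347), and its 3 probe sets gave -0.18 to -0.057. Cdk6, the other kinase of the D cyclins, lay at 3.28 to 3.67 on the 5 arrays and was not tested.

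At the step from G1 to S phase, 0 of 2 tested genes passed in limma. An unadjusted p under 0.05 was found for 0, against 21.2% of all genes tested. Ccne1, cyclin E1, read 4.71, 4.56 and 4.41 at day 0 and 4.88 and 4.59 at day 4, close to the filter and overlapping (difference 0.18, 95% interval -0.16 to 0.51, limma adjusted p = 0.500). Leaving out single arrays gave 0.031 to 0.32. Cdk2, its kinase, gave 7.54, 7.58 and 7.75 against 7.58 and 7.43 (difference -0.12, 95% interval -0.38 to 0.15, limma adjusted p = 0.575). Ccne2, cyclin E2, lay at 3.63 to 3.95 and was not tested. The intervals of Ccne1 and Cdk2 do not reach the values of Ccna2 and Cdk1, but the difference between these genes was not tested.

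**Figure D3:**
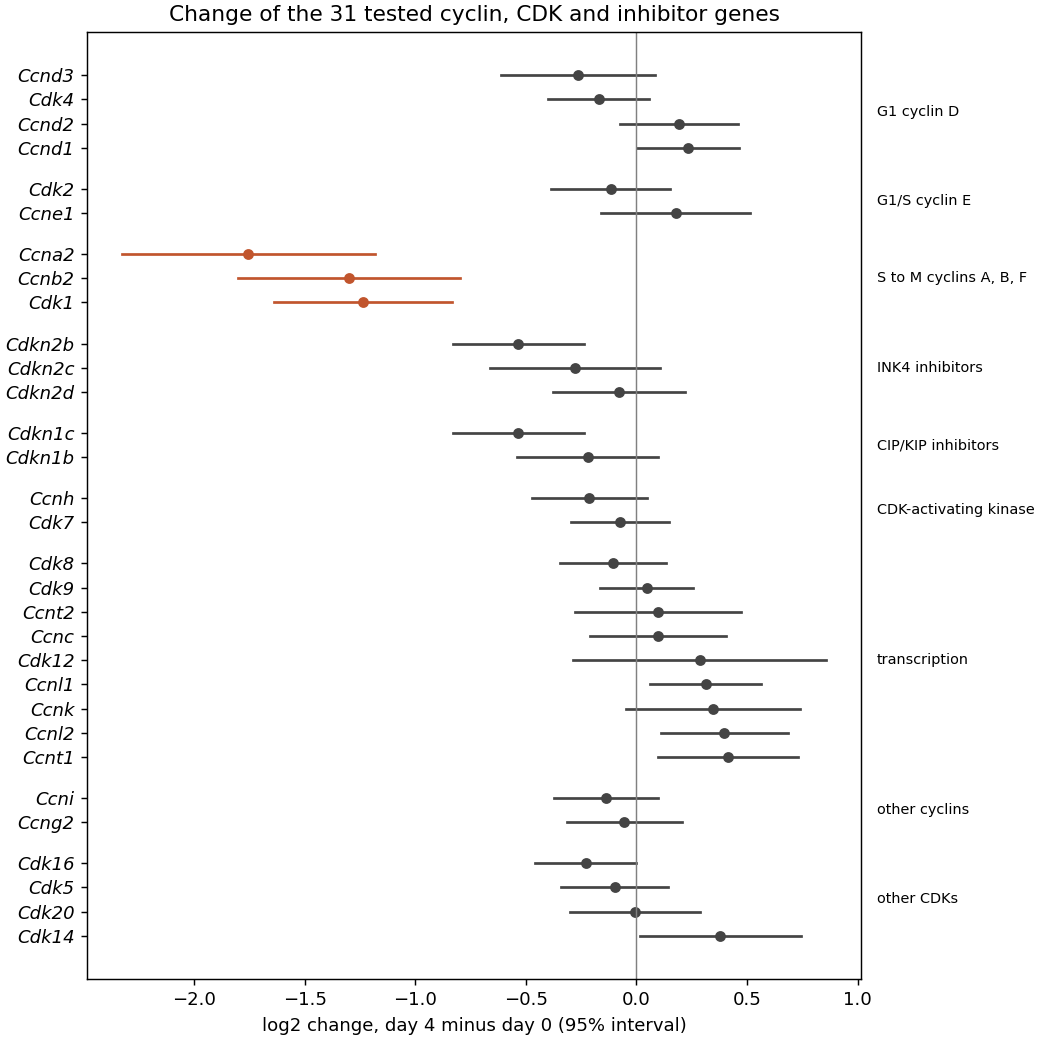
Log2 change, day 4 minus day 0, of the 31 tested genes, ordered by role, with 95% intervals from the limma fit. Orange marks the 3 genes that passed the threshold, Ccna2, Ccnb2 and Cdk1, at -1.75 to -1.24, while all other points lie between -0.53 and 0.41.

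Of the 5 tested CDK inhibitors, 0 passed in limma. All 5 differences were below 0, as were those of 54.3% of all genes tested. Cdkn1c and Cdkn2b had an unadjusted p under 0.05, as had 21.2% of all genes tested. Cdkn1c encodes p57, a CIP/KIP inhibitor of quiescent and differentiating cells. It read 9.38, 9.16 and 9.49 at day 0 and 8.83 and 8.79 at day 4, with no overlap. The difference of -0.53 ± 0.12 (SE; 95% interval -0.83 to -0.24) missed the threshold (limma adjusted p = 0.0787), and it passed with an intensity trend and robust fitting (limma adjusted p = 0.0439). Cdkn1b, which encodes p27, gave 8.14, 8.33 and 8.52 at day 0 and 8.07 and 8.14 at day 4. Its groups overlapped slightly (difference -0.22, 95% interval -0.54 to 0.097, limma adjusted p = 0.380).

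Among INK4 inhibitors, Cdkn2b, which encodes p15, a target of TGF-beta signalling, read 5.45, 5.38 and 5.41 at day 0 and 4.71 and 5.05 at day 4. The 3 day 0 arrays were close together and both day 4 arrays lay below them. The difference was -0.53 ± 0.12 (SE; 95% interval -0.83 to -0.24), and it did not pass (limma adjusted p = 0.0801). Without day 4 replicate 2 it was -0.70 and passed (limma adjusted p = 0.0454), and without day 4 replicate 1 it was -0.37 and did not (limma adjusted p = 0.166).

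Cdkn2c, p18, gave 6.76, 6.93 and 6.92 at day 0 and 6.84 and 6.35 at day 4, and the spread of the day 4 pair exceeded the difference of -0.28 (95% interval -0.66 to 0.11, limma adjusted p = 0.365), which ran from -0.52 to -0.034 when single arrays were left out. Cdkn2d, p19, overlapped between groups (7.53, 7.61 and 7.78 against 7.45 and 7.67, limma adjusted p = 0.743), and its difference of -0.079 changed sign without day 4 replicate 1. Cdkn2a, whose products p16 and p19ARF are known as marks of senescence, lay at 2.38 to 2.54 on the 5 arrays and was not tested. At these values, a difference in Cdkn2a was not detectable over background.

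Cyclin H with CDK7 forms the CDK-activating kinase, which phosphorylates other CDKs and RNA polymerase II. Ccnh read 7.39, 7.32 and 7.15 at day 0 and 7.11 and 7.04 at day 4 (difference -0.21, limma adjusted p = 0.308), and Cdk7 differed by -0.076 (limma adjusted p = 0.662). All 3 Ccnh probe sets gave negative differences, from -0.21 to -0.083.

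Of the 9 tested cyclins and CDKs of transcription, 0 passed in limma. Their median change was 0.29, with 8 of the 9 above 0, while 54.3% of all genes tested lay below 0. Of the 8, Ccnc and Ccnt2 changed sign when 1 array was left out. Their day 4 arrays lay above all day 0 arrays for 4 genes, a pattern found for 18% of all genes tested. An unadjusted p under 0.05 was found for 3, which were Ccnt1, Ccnl1 and Ccnl2, against 21.2% of all genes tested.

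Ccnt1 encodes cyclin T1, which with CDK9 forms P-TEFb, the kinase that releases paused RNA polymerase II. It read 5.38, 5.69 and 5.71 at day 0 and 5.97 and 6.05 at day 4, with no overlap (difference 0.41, 95% interval 0.098 to 0.73, limma adjusted p = 0.149). Its kinase Cdk9 was nearly level, at 8.57 to 8.60 at day 0 and 8.61 and 8.66 at day 4 (difference 0.046, 95% interval -0.16 to 0.26, limma adjusted p = 0.794). Ccnt2, the other P-TEFb cyclin, overlapped between groups (difference 0.097, limma adjusted p = 0.750) and changed sign without day 0 replicate 1, while its other probe set past the filter gave 0.40.

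Cyclins L1 and L2 act in pre-mRNA splicing. Ccnl1 read 11.00, 11.18 and 11.21 at day 0 and 11.44 and 11.45 at day 4, a difference of 0.31 (95% interval 0.062 to 0.56, limma adjusted p = 0.162). Ccnl2 read 8.74, 8.94 and 8.91 at day 0 and 9.15 and 9.38 at day 4, a difference of 0.40 (95% interval 0.11 to 0.68, limma adjusted p = 0.134). All day 4 values of both genes lay above the day 0 values, and the 3 Ccnl2 probe sets gave 0.40 to 0.45.

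Cyclin K and CDK12 act together on the elongating polymerase. Ccnk differed by 0.35 (limma adjusted p = 0.278) and Cdk12 by 0.29 (limma adjusted p = 0.524), and both overlapped between groups. Leaving out single arrays gave 0.059 to 0.51 for Cdk12. Cyclin C and CDK8 belong to the kinase module of the Mediator complex. Ccnc differed by 0.097 (limma adjusted p = 0.689), with the opposite sign without day 4 replicate 1, and Cdk8 by -0.11 (limma adjusted p = 0.578).

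**Figure D4:**
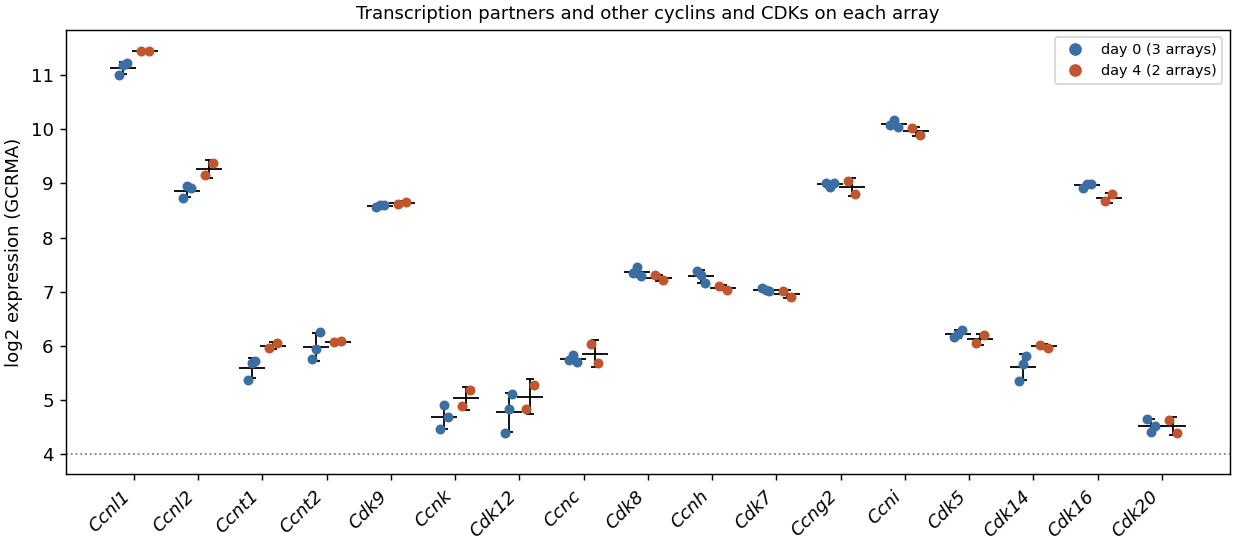
Log2 expression of the transcription partners and the other tested cyclins and CDKs on each array, with day 0 in blue (3 arrays) and day 4 in orange (2 arrays). Horizontal marks and bars give mean and SD, and the dotted line is the level filter at 4. Ccnl1, Ccnl2, Ccnt1, Cdk9 and Cdk14 have both day 4 points above their day 0 points, and Ccnh, Ccni and Cdk16 have both below. The points of the other genes overlap. Of all genes tested, 41.1% did not overlap.

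Neither of the 2 tested cyclins outside the cycle passed in limma. An unadjusted p under 0.05 was found for 0, against 21.2% of all genes tested. Ccng2, cyclin G2, is induced by FOXO factors in resting cells, and its highest-mean probe set read 8.93 to 9.01 at day 0 and 9.04 and 8.81 at day 4 (difference -0.055, limma adjusted p = 0.799). A second Ccng2 probe set read 4.90, 5.21 and 5.39 at day 0 and 5.88 and 5.56 at day 4, a difference of 0.55 with no overlap, so the sign for Ccng2 depends on the probe set. Ccni, cyclin I, differed by -0.14 (limma adjusted p = 0.457), and its 3 probe sets gave -0.48 to -0.059. Ccnj, cyclin J, lay at 3.19 to 3.49 and was not tested.

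Among the other CDKs, Cdk14, a kinase that works with cyclin Y in Wnt signalling, read 5.35, 5.66 and 5.82 at day 0 and 6.02 and 5.96 at day 4 (difference 0.38, 95% interval 0.014 to 0.74, limma adjusted p = 0.223). Cdk16, a kinase of the PCTAIRE family, read 8.908, 8.987 and 8.996 at day 0 and 8.669 and 8.798 at day 4 (difference -0.23, limma adjusted p = 0.235). Neither overlapped between groups and neither passed, and the other Cdk16 probe sets past the filter gave -0.13 and -0.011. Cdk5, best known from neurons, gave -0.099 on one probe set and 0.18 on the other, and Cdk20 differed by -0.0052 (limma adjusted p = 0.984). Cdk18 lay at 3.40 to 3.89 and was not tested.

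**Figure D5:**
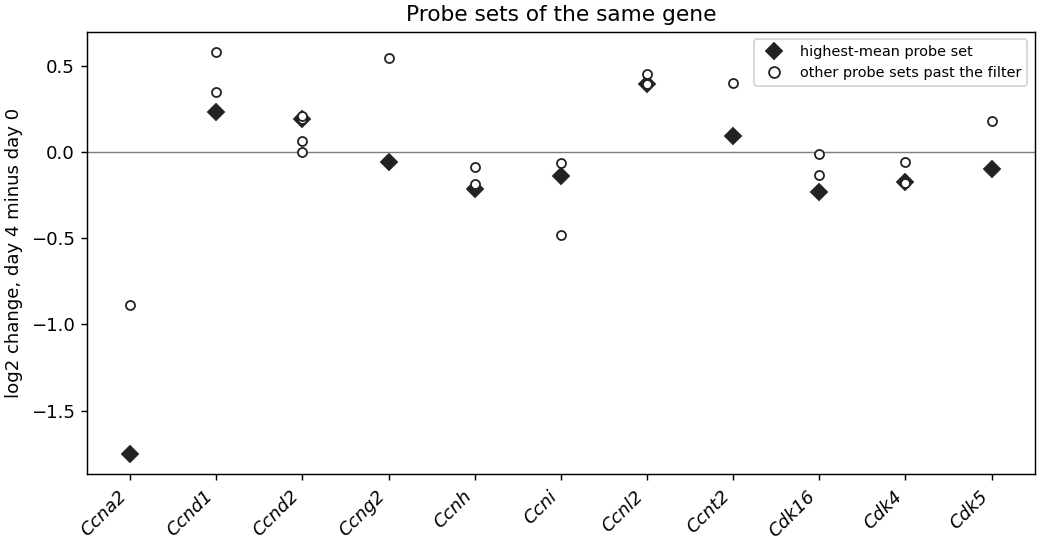
Log2 change, day 4 minus day 0, of each probe set past the filter for the 11 member genes with more than 1 such probe set. Filled diamonds are the probe sets used in the test and open circles the others. The probe sets of 9 genes lie on one side of 0, and those of Ccng2 and Cdk5 lie on both sides.

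Probe sets of one gene were compared where a gene had more than 1 past the filter. This held for 11 member genes, and for 9 of them all differences had one sign. When all 15065 probe sets past the filter were fitted together, 2 member probe sets were lower and 0 higher, those of Ccna2 and Cdk1, against 0.677% lower and 0.717% higher of all. Ccnb2 missed that threshold (limma adjusted p = 0.0528). Some probe sets of Cdk4, Ccnd2, Ccnl2, Cdk16, Ccnh, Cdk20 and Ccni carry suffixes that the manufacturer uses for probes shared between similar transcripts, so their values may mix sources.

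Of 46 listed genes that control or mark the same cycle, 33 were tested, with a median change of -0.026. At day 4, 4 of the 33 were lower and 0 higher, against 1.35% and 1.5% of all genes tested. The list was chosen with earlier results of these data known, so this comparison is not an independent test. Mki67, a marker of cycling cells, read 6.96, 6.21 and 6.91 at day 0 and 4.57 and 4.19 at day 4 and had a log2 change of -2.32 (limma adjusted p = 0.0134). Top2a, which untangles DNA before chromosomes separate, fell by 1.83 on the log2 scale (limma adjusted p = 0.0161). Ube2c, the ubiquitin-conjugating enzyme of the anaphase-promoting complex, fell by 2.21 (limma adjusted p = 0.0177). Its day 4 values of 3.95 and 3.28 lay under the filter, which Ube2c passed through its day 0 arrays alone. Its call counts with that limit, and the size rests on background. Cdc20, an activator of that complex, had a log2 change of -0.70 on its highest-mean probe set (limma adjusted p = 0.0448). Its other probe sets past the filter overlapped between groups, at -0.10 and -0.0010, and the call was lost when all probe sets were fitted together (limma adjusted p = 0.0647), when they were averaged, with no level filter, with array weights and whichever single array was left out. Leaving out day 0 replicate 3 left 0 called among the 33, where 34 of all 8940 genes passed. The calls were also lost without day 4 replicate 1. Without day 4 replicate 2, Mki67 (-2.13) and Ube2c (-1.88) kept theirs, and Top2a and Cdc20 did not.

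None of the 8 tested E2F and pocket protein genes passed, and 2 had an unadjusted p under 0.05, against 21.2% of all genes tested. Among the tested probe sets of the list, the largest positive differences were those of Hexim1, an inhibitor of P-TEFb (0.60, limma adjusted p = 0.112), Pcna, the sliding clamp of DNA polymerases and a p53 target (0.50, limma adjusted p = 0.147), and Wee1, which holds CDK1 inactive (0.21, limma adjusted p = 0.270). The other Wee1 probe set gave 0.55, but its day 0 values of 3.61 to 3.83 lay under the filter. It passed the filter through its day 4 arrays alone, so that size rests on background. Hexim1 and Pcna passed without day 4 replicate 2, at 0.84 and 0.75 (limma adjusted p = 0.0466 for each).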

How the data were processed

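The authors deposited 1 log2 value per probe set and array from single-colour Affymetrix MOE 430 A 2.0 arrays. The tool was GCRMA, as the submitters' processing notes record. Its version and the set of arrays it was run on are not stated. Array medians lay between 5.26 and 5.30. GCRMA equalizes distributions, which hides changes shared by most genes, and values near background have no firm fold change. No detection calls were used, and the number of arrays limits the precision.

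Genes were named by the platform annotation, and all 70 member probe sets matched RefSeq by Entrez identifier and symbol. Probe sets above 4 on at least 2 arrays were kept, and each gene was represented by the one with the highest mean. Day 4 was compared with day 0 in R 4.3.3 with limma 3.58.1 (lmFit, eBayes), two-sided, without covariates (3 residual and 3.29 prior degrees of freedom), with Benjamini-Hochberg adjustment over 8940 genes at 0.05. Errors are SD over arrays or SE of the fit. The fit was tested on simulated data. Alternatives were other scalings, level filters, probe set rules, eBayes settings, array weights, a replicate block, another threshold and leaving out single arrays. Figures were drawn with matplotlib 3.10.9.

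All member genes could be named, by role. Of the partner list, called genes and the 3 largest rises and falls were. Members and lists were chosen with earlier results of these data known.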

Additional observations from a re-analysis of the deposited data

How the results depend on the processing

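Of the 31 tested genes' changes, recomputed under each alternative, 429 values kept direction and side of the threshold, 13 lost the call, 4 gained it and 9 changed sign. The count of lower cyclin and CDK genes, 3, was 1 with a level filter at 6, which tests neither Ccnb2 nor Cdk1, 1 with array weights and 5 at an adjusted p under 0.1. Over all genes, 86 passed with array weights and 673 at an adjusted p under 0.1, against 255 of 8940 in the main fit. Leaving out single arrays gave 0 to 3 lower members, 0 to 3 lower partner genes and 0 to 2 higher ones. Higher members numbered 0 under every alternative run. Averaging all probe sets of a gene turned Ccng2 to 0.25 and Cdk5 to 0.041, and array weights turned Cdk20 to 0.0095. Leaving out single arrays gave -0.17 to 0.062 for Ccng2, -0.12 to 0.11 for Cdk20, -0.076 to 0.27 for Ccnc, -0.015 to 0.23 for Ccnt2 and -0.19 to 0.030 for Cdkn2d. The cause was not tested. With 1 day 4 array left, that array is assumed to vary like the day 0 arrays. Replicates 1 and 2 carry the same numbers in both groups, but nothing in the labels pairs them. Deviations of same-numbered arrays correlated at 0.16 and 0.078 across genes. With the replicate number as a block, where day 0 replicate 3 has no partner and drops out, 3 members and 5 partner genes were lower. Calls over all genes also rose with the block, to 481 of 8940 from 255. Median centring moved the median change of all genes to -0.053. Probe sets near the filter, such as Ccnb2 and Ccne1, are limited by signal over background.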
